A study of Mus musculus with 7 samples.

Results

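The chemokine and myeloid growth factor genes of bile duct epithelium were followed as a set of 10: Cxcl1, Cxcl2, Cxcl5, Cxcl12, Cxcl16, Cx3cl1, Ccl2, Ccl20, Csf1 and Il34. They were chosen by name as rows of the raw count table, and all 10 were found among its 24552 gene symbols. The libraries were made from liver cholangiocytes, the epithelium of bile ducts, labelled EpCAM+ and taken from Foxp3GFPDTR mice. In this strain the Foxp3 promoter drives the diphtheria toxin receptor in regulatory T cells. The DT group (3 libraries) received diphtheria toxin at 1 µg/kg, and the PBS group (4 libraries) received saline, both by intraperitoneal injection every 48 h. Animals of both groups carried the Foxp3GFPDTR allele and ate DDC, a porphyrinogenic chemical that injures bile ducts, for 10 days. No undamaged ducts and no toxin-treated animals without the receptor are among the groups analysed here, and the labels give neither age nor sex. The labels do not say whether each library is 1 animal, so the spread behind each p-value may be technical.

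Chemokines are small secreted or membrane-bound proteins that direct the movement of leukocytes through receptors coupled to G proteins. Injured cholangiocytes are known to make them, and the genes of several, including Cxcl1, Cxcl2, Ccl2 and Ccl20, are textbook targets of the transcription factor NF-kB. Csf1 and Il34 encode the ligands of the receptor Csf1r, through which macrophages survive and mature.

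Total counts per library lay between 4805018 and 6285624. Values are given as CPM, the usual depth-scaled count, with library sizes adjusted by TMM. Differences between DT and PBS were tested with edgeR (quasi-likelihood) on 7688 genes, adjusted after Benjamini and Hochberg and called at an adjusted p below 0.05. The cholangiocyte markers Spp1, Krt18 and Cldn4 were read in every library, and all 16 listed cholangiocyte markers had reads. Foxp3, the gene of the targeted cells, was at 0 counts throughout, a value that counting error leaves compatible with up to 3 counts per library. Reads of Y-linked genes occurred in all 3 DT libraries and in 1 PBS library, PBS 1. Their presence was thus nearly aligned with the groups. A difference that goes with these reads cannot be told apart from one that goes with the toxin. In bulk samples, fewer cells of a type and less RNA per cell cannot be told apart.

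Cxcl5, Cxcl2 and Cxcl1 were among the most abundant transcripts of these cholangiocytes in both groups, and the other members had lower mean levels. The 10 genes together held 1.09%, 0.677% and 1.03% of all counts in DT 1 to 3, against 0.789%, 1.29%, 0.952% and 0.667% in PBS 1 to 4. The highest and the lowest of these shares were both in PBS libraries, and the DT values lay between them. Of the counts of the 10 genes, 72.0% to 80.4% in DT libraries and 72.8% to 75.6% in PBS libraries belonged to Cxcl1, Cxcl2 and Cxcl5. By mean CPM over the 7 libraries, Cxcl5 ranked 14, Cxcl2 20, Cxcl1 52, Ccl2 119 and Cxcl16 182 among the 24552 rows of the table. Ccl20 ranked 409, Csf1 1419, Cx3cl1 2375, Il34 3479 and Cxcl12 8927.

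**Figure D1:**
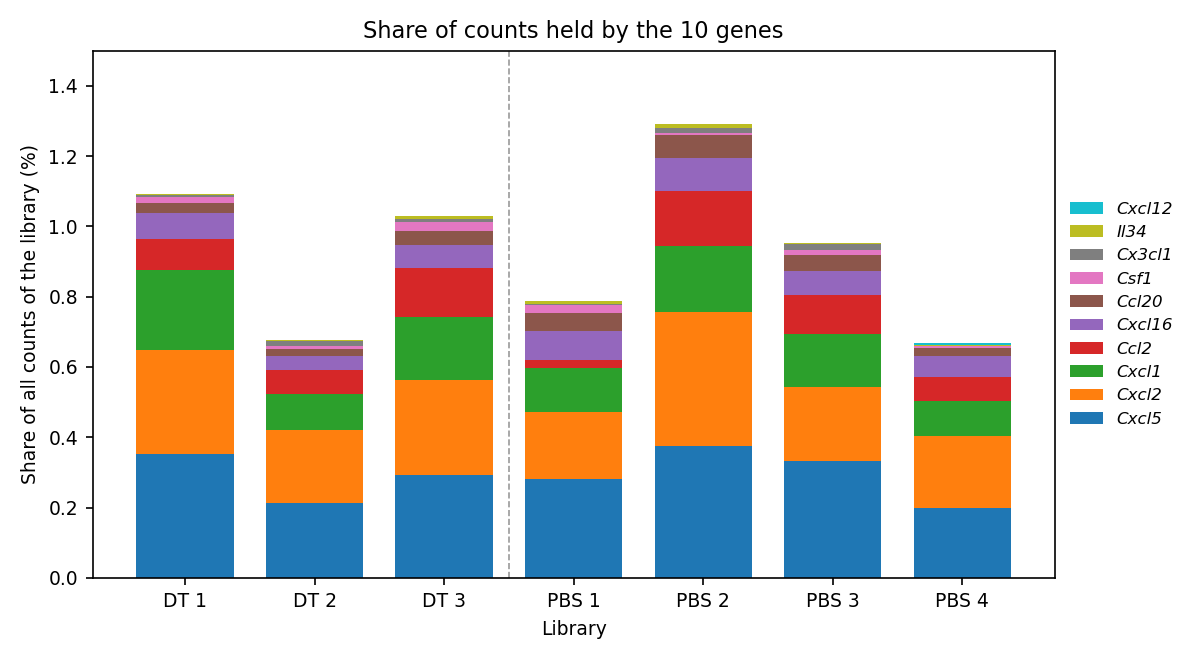
Share of all counts of each library (vertical axis, percent) held by the 10 genes, stacked by gene, in DT 1 to 3 and PBS 1 to 4. The bars run from 0.667% in PBS 4 to 1.29% in PBS 2, and Cxcl5, Cxcl2 and Cxcl1 make up most of each.

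No member differed between DT and PBS beyond the spread of the libraries. Of the 10 genes, 9 passed the filter on low counts. Cxcl12 did not. By the edgeR test 0 of the 9 were called (adjusted p = 1.00 for each), where 0.039% of all tested genes were called. At an unadjusted p below 0.05 the count was also 0 of 9, against 3.5% of all tested genes, and DESeq2 and limma-voom called 0 members as well. For each of the 9 the ranges of CPM in DT and PBS overlapped. Groups without overlap made up 6.31% of tested genes and 13.3% of well-read ones (average log2 CPM of at least 8). Among the 9 members, 5 log2 fold changes were positive and 4 negative, with a median of 0.03, and over all tested genes the median was -0.02 with 49.3% positive.

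**Figure D2:**
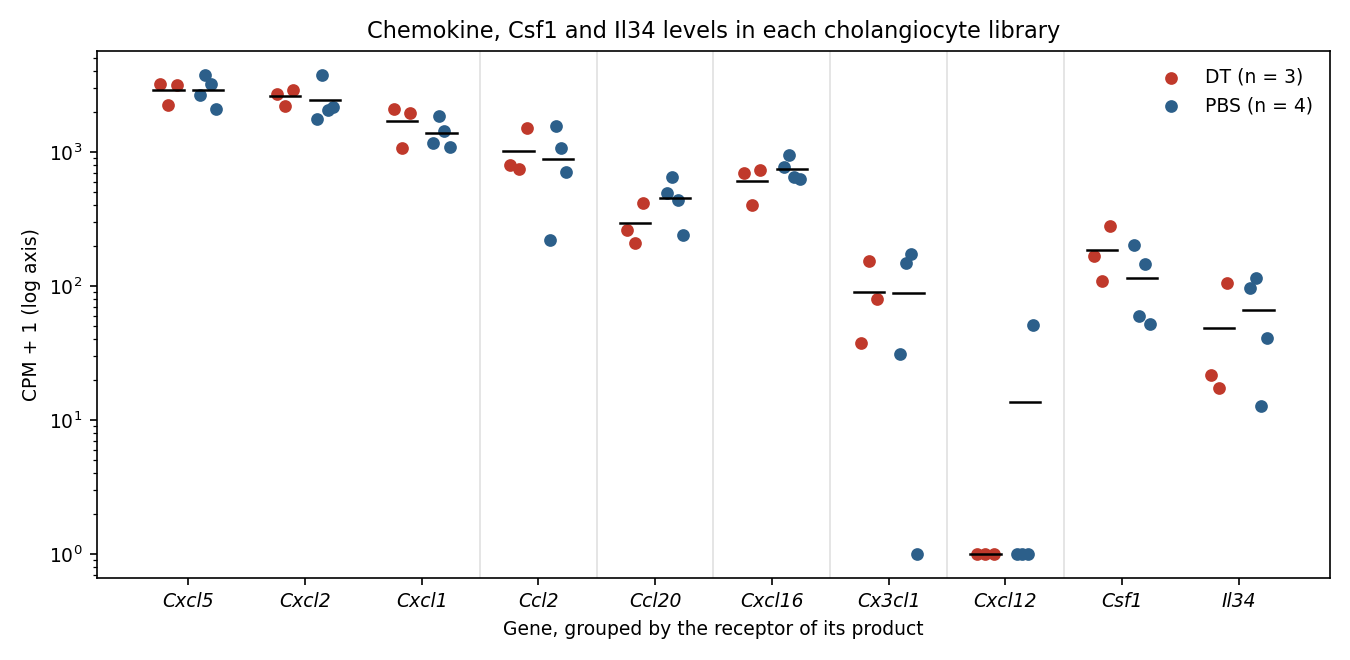
CPM + 1 on a log axis for each gene, with DT libraries in red at the left and PBS libraries in blue at the right of each pair, 1 point per library and a black line at the group mean. The groups overlap for every tested gene, and Cxcl12 is above 0 in PBS 4 alone.

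Cxcl5, Cxcl2 and Cxcl1 encode CXC chemokines that attract neutrophils through the receptor Cxcr2. Cxcl5 was at 3243, 2241 and 3169 CPM in DT 1 to 3, against 2642, 3743, 3205 and 2094 CPM in PBS 1 to 4. The highest and the lowest values were PBS libraries. Cxcl5 averaged 2884 ± 558 CPM in DT (SD, n = 3) and 2921 ± 712 CPM in PBS (SD, n = 4), and the log2 fold change was -0.02 with an SE of 0.21. The 95% interval of this difference ran from 0.731-fold to 1.33-fold. Larger changes of Cxcl5 in either direction lay outside it.

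Cxcl2, also known as macrophage inflammatory protein 2, was at 2729, 2205 and 2904 CPM in DT 1 to 3, against 1762, 3774, 2048 and 2166 CPM in PBS 1 to 4. PBS 2 was the highest library, and all 3 DT libraries lay below it and above the other 3 PBS libraries. The log2 fold change was 0.10 (SE 0.23, 95% interval -0.37 to 0.57). Cxcl1, the mouse counterpart of GRO-alpha, was at 2106, 1065 and 1947 CPM in DT 1 to 3, against 1169, 1864, 1440.0 and 1080.4 CPM in PBS 1 to 4. DT 1 and DT 3 were the highest libraries and DT 2 the lowest. Cxcl1 averaged 1706 ± 561 CPM in DT (SD, n = 3) and 1388 ± 352 CPM in PBS (SD, n = 4), and the log2 fold change was 0.30 (SE 0.26, 95% interval -0.24 to 0.83). Without DT 1 the log2 fold change of Cxcl1 was 0.09 and without DT 2 it was 0.54.

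The proportions of these 3 transcripts were also compared within each library. Cxcl5 was 40.1%, 40.7% and 39.5% of their summed counts in DT 1 to 3, against 47.4%, 39.9%, 47.9% and 39.2% in PBS 1 to 4. Cxcl1 was 26.1%, 19.3% and 24.3% in DT 1 to 3, against 21.0%, 19.9%, 21.5% and 20.2% in PBS 1 to 4. The ratio of Cxcl1 to Cxcl5 counts was 0.649, 0.475 and 0.614 in DT 1 to 3, against 0.442, 0.498, 0.449 and 0.516 in PBS 1 to 4. DT 1 and DT 3 had the highest ratios, and DT 2 lay within the PBS range.

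Cxcl1, Cxcl2 and Cxcl5 lie in 1 chemokine cluster on chromosome 5, where the RefSeq order of protein-coding genes is Cxcl5, Ppbp, Pf4, Cxcl3, Cxcl15, Cxcl1 and Cxcl2. Counts along the cluster were uneven. Cxcl3, a further Cxcr2 ligand gene, had 0, 242 and 60 counts in DT 1 to 3, against 15, 196, 219 and 158 in PBS 1 to 4. Pf4 had 455, 0 and 289 counts in DT 1 to 3, against 329, 0, 0 and 15 in PBS 1 to 4. Ppbp and Cxcl15 had 0 counts in every library. Transcripts of Cxcl2 and Cxcl3 share an exact run of 110 bases, so reads of this pair could be split between them. In the last 400 bases, where reads of a 3′-end library fall, the longest run shared by Cxcl2 and Cxcl3 was 16 bases and that shared by Cxcl1 and Cxcl2 was 14 bases.

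Of the 10 genes, 6 had a start site in the RefSeq promoter table of build GRCm38.p6: Cxcl1, Cxcl2, Ccl20, Csf1, Cxcl12 and Cx3cl1. The 250 bases before the start are shown for 4 of them. Cxcl1 and Cxcl2 were taken as neighbours of high level. Ccl20 and Csf1 were taken because the genes most like them across libraries, Nfkbia and Icam1, are known NF-kB targets. That likeness is the highest of 706 and 707 correlations over 7 libraries and carries no test. For Csf1, Cox6a1 (r 0.877) and Rps15a (0.874) were nearly as alike as Icam1 (0.882). The choice of these genes thus rested on NF-kB, and their regulation by it was not tested. The sequences are read 5′ to 3′ on the strand of the gene. Capitals mark matches, on either strand, to a loose NF-kB pattern: GGG, any 5 bases, CC. Cxcl1 is on the plus strand at chr5:90890995-90891244, Cxcl2 on the plus strand at chr5:90903649-90903898, Ccl20 on the plus strand at chr1:83116516-83116765 and Csf1 on the minus strand at chr3:107760470-107760719.
Cxcl1: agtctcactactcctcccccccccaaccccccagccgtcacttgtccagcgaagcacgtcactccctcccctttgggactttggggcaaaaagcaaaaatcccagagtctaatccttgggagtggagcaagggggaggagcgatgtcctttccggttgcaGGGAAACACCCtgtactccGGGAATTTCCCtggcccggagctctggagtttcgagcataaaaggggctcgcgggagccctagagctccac
Cxcl2: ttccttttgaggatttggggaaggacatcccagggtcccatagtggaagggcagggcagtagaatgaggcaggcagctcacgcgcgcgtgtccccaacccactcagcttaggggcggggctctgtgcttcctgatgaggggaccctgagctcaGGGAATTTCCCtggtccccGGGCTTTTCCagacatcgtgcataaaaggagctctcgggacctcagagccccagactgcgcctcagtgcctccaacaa
Ccl20: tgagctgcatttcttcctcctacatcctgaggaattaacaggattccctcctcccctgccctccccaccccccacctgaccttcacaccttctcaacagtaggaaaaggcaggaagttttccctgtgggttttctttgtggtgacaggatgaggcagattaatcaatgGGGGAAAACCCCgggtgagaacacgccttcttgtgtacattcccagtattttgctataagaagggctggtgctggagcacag
Csf1: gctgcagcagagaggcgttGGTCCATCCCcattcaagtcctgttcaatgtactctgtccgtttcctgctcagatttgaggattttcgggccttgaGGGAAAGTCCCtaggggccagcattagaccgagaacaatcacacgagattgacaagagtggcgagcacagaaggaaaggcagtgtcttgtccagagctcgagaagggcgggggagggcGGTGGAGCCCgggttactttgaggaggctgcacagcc

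A stricter pattern (GGGA, any 2 bases, TTCC), every match of which also matches the loose one, was found in Cxcl1, Cxcl2 and Csf1. Among 27025 mouse promoters of the same length, 1.17% hold it on either strand and 45.4% hold the loose one. Cxcl1 and Cxcl2 share GGGAATTTCCCTGG, a run of 14 bases and the longest they have in common in this window. It begins 71 bases before the start of Cxcl1 and 97 bases before that of Cxcl2. Within it the stricter pattern matches on both strands, offset by 1 base. In Csf1 the stricter match lies 145 to 154 bases before the start, on the opposite strand. Ccl20 has overlapping matches to the looser pattern 71 to 82 bases before its start. Cxcl12 has 1 match to the looser pattern, Cx3cl1 has 0, and the AP-1 pattern TGANTCA, held by 6.87% of promoters, was in 0 of the 6. These matches describe letters in a window and are not measured binding sites.

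**Figure D3:**
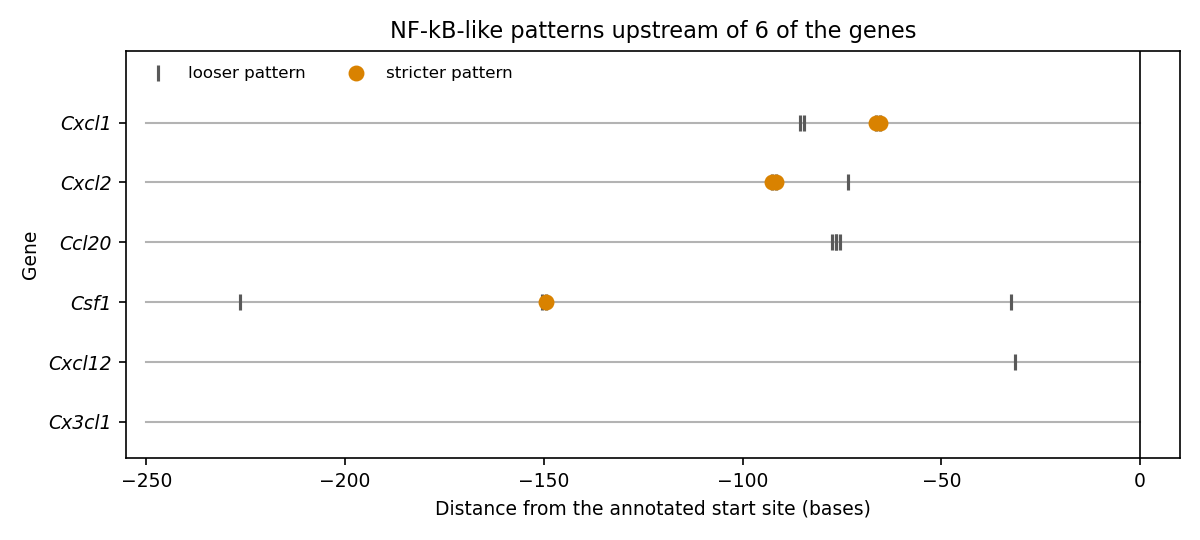
Positions of the looser pattern (grey ticks) and the stricter pattern (orange circles) in the 250 bases before the annotated start of 6 genes, with distance from the start in bases on the horizontal axis. Cxcl1 and Cxcl2 carry the stricter pattern within 100 bases of the start, Csf1 carries it about 150 bases away, and Ccl20 carries the looser one alone.

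Ccl2 encodes the chief monocyte attractant, which acts through Ccr2. It was at 795, 749 and 1509 CPM in DT 1 to 3, against 218, 1562, 1076 and 714 CPM in PBS 1 to 4. PBS 1 was far below the other 6 libraries, and PBS 2 and DT 3 were the highest. Ccl2 averaged 1018 ± 426 CPM in DT (SD, n = 3) and 892 ± 568 CPM in PBS (SD, n = 4), and the log2 fold change was 0.19 (SE 0.59, 95% interval -1.16 to 1.54). The value was -0.15 without PBS 1 and -0.22 without DT 3. The gene after Ccl2 on chromosome 11, Ccl7, which encodes another Ccr2 ligand, had 0, 90 and 0 counts in DT 1 to 3, against 0, 0, 413 and 17 in PBS 1 to 4. Ccl11 and Ccl12, which follow it, had 0 counts in every library.

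Macrophages, stellate cells and fibroblasts are also known to make Ccl2. The summed level of 19 macrophage and monocyte markers was 1569, 1738 and 2032 CPM in DT 1 to 3, against 851, 1565, 1468 and 2322 CPM in PBS 1 to 4. It was lowest in PBS 1, as Ccl2 was, but highest in PBS 4, where Ccl2 was lower than in any library except PBS 1. In every library except PBS 4, most of this sum was Cd14, at 1232 ± 25.5 CPM in DT (SD, n = 3) and 1123 ± 350 CPM in PBS (SD, n = 4), a receptor gene that epithelial cells also express. Of the 19 markers 17 had reads, and Adgre1 and Ms4a7 were at 0 in every library. Csf1r had 1, 866 and 922 counts in DT 1 to 3, against 319, 458, 274 and 915 in PBS 1 to 4. C1qb, a complement gene of macrophages, had 719, 312 and 209 counts in DT 1 to 3, against 0, 106, 0 and 311 in PBS 1 to 4. PBS 4, followed by DT 2 and DT 3, held reads of the most markers. The same libraries had reads of the most genes of any kind, with 8361 in PBS 4, 7827 in DT 2 and 7920 in DT 3. The other libraries ran from 5419 (DT 1) to 6952 (PBS 2). Lyz2 had 81, 69 and 330 counts in DT 1 to 3, against 6, 8, 0 and 1522 in PBS 1 to 4. The part of these cells in the level of Ccl2 was not tested.

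Ccl20 and Cxcl16 encode attractants of lymphocytes. Ccl20, whose receptor Ccr6 marks Th17 cells and part of the regulatory T cells, was at 262, 209 and 416 CPM in DT 1 to 3, against 492, 649, 440.4 and 238 CPM in PBS 1 to 4. All 3 DT libraries were below PBS 1, PBS 2 and PBS 3, and PBS 4 was within the DT range. Ccl20 averaged 296 ± 108 CPM in DT (SD, n = 3) and 455 ± 170 CPM in PBS (SD, n = 4), and the log2 fold change was -0.62 (SE 0.43, 95% interval -1.49 to 0.25). Its unadjusted edgeR p of 0.157 was the smallest of the 9 members. Leaving out 1 library moved the log2 fold change of Ccl20 between -0.96 (without DT 3) and -0.40 (without PBS 2).

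Cxcl16 encodes a chemokine with a transmembrane anchor, the ligand of Cxcr6 on NKT cells and activated T cells. It was at 690.0, 402 and 728 CPM in DT 1 to 3, against 773, 945, 654 and 631 CPM in PBS 1 to 4. DT 2 was the lowest library and the other 2 DT values lay among the PBS values. Cxcl16 averaged 607 ± 178 CPM in DT (SD, n = 3) and 751 ± 144 CPM in PBS (SD, n = 4), and the log2 fold change was -0.31 (SE 0.33, 95% interval -0.97 to 0.35). Without DT 2 this value was -0.08.

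Cx3cl1 and Cxcl12 were the chemokines with the fewest reads. Cx3cl1, or fractalkine, is the other chemokine with a transmembrane anchor and binds Cx3cr1 on monocytes and macrophages. It had 224, 831 and 462 counts in DT 1 to 3, against 160, 773, 853 and 0 in PBS 1 to 4. PBS 4 was at 0, and its total count was the highest of the PBS group. Of the values of the 200 tested genes nearest to Cx3cl1 in mean CPM, 8% were 0. Cx3cl1 averaged 89.3 ± 58.6 CPM in DT (SD, n = 3) and 87.6 ± 85.0 CPM in PBS (SD, n = 4). The 95% interval of its log2 fold change ran from -3.07 to 3.12, the second widest of the 9. Its log2 fold change of 0.03 changed sign with RLE and upper quartile factors (-0.04 and -0.02). Its neighbours on chromosome 8, Ccl22 and Ccl17, had at most 1 and 181 counts in any library.

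Cxcl12 encodes a Cxcr4 ligand that is made mainly by stromal and endothelial cells in many tissues. It had 0 counts in DT 1 to 3, against 0, 0, 0 and 262 in PBS 1 to 4. The gene was not tested, and with no filter on low counts it had an edgeR adjusted p of 0.521. Each 0 allows up to 3 counts by counting error. Zeros were common at this level: of the values of the 200 tested genes nearest to Cxcl12 in mean CPM, 50.1% were 0. PBS 4 also held the only reads of Dcn, a fibroblast marker (571 counts), and of Cxcr4 (669 counts), both chosen after their values were seen. Other fibroblast markers were not high there: Col1a2 had 0 counts in PBS 4 and 555 in PBS 2, Col3a1 had 7 in PBS 4 and 473 in PBS 1, and Col1a1 had 4 in PBS 4 and 130 in PBS 2. PBS 4 was likewise the only library with reads of Timd4, a macrophage marker, and of Gzmb, a marker of cytotoxic lymphocytes. It also had reads of more genes of any kind (8361) than any other library. Pdgfra, Pdgfrb, Des, Lrat and Colec11, further stellate cell and fibroblast markers, had 0 counts in all libraries. The part of stromal cells in the Cxcl12 reads was not tested.

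Csf1 and Il34 act on the same receptor, Csf1r. Csf1, which encodes macrophage colony-stimulating factor, was at 166, 108 and 278 CPM in DT 1 to 3, against 199.5, 58.6, 145 and 50.8 CPM in PBS 1 to 4. DT 3 was the highest library and PBS 2 and PBS 4 were the lowest, with the other 4 interleaved. Csf1 averaged 184 ± 86.1 CPM in DT (SD, n = 3) and 114 ± 71.6 CPM in PBS (SD, n = 4), and the log2 fold change was 0.70 (SE 0.81, 95% interval -0.94 to 2.33). It ranged from 0.27 without DT 3 to 1.10 without PBS 1.

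Il34, the second Csf1r ligand gene, known from skin and brain as the source of survival signals for Langerhans cells and microglia, had 128, 89 and 609 counts in DT 1 to 3, against 508, 592, 58 and 206 in PBS 1 to 4. DT 3, PBS 1 and PBS 2 were high and the other 4 low. Il34 averaged 47.3 ± 49.8 CPM in DT (SD, n = 3) and 65.3 ± 47.8 CPM in PBS (SD, n = 4), and the log2 fold change was -0.47, with a 95% interval from -4.76 to 3.83. It was -1.82 without DT 3 and -0.06 without DT 2. Csf1 was above Il34 in every library except PBS 2.

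**Figure D4:**
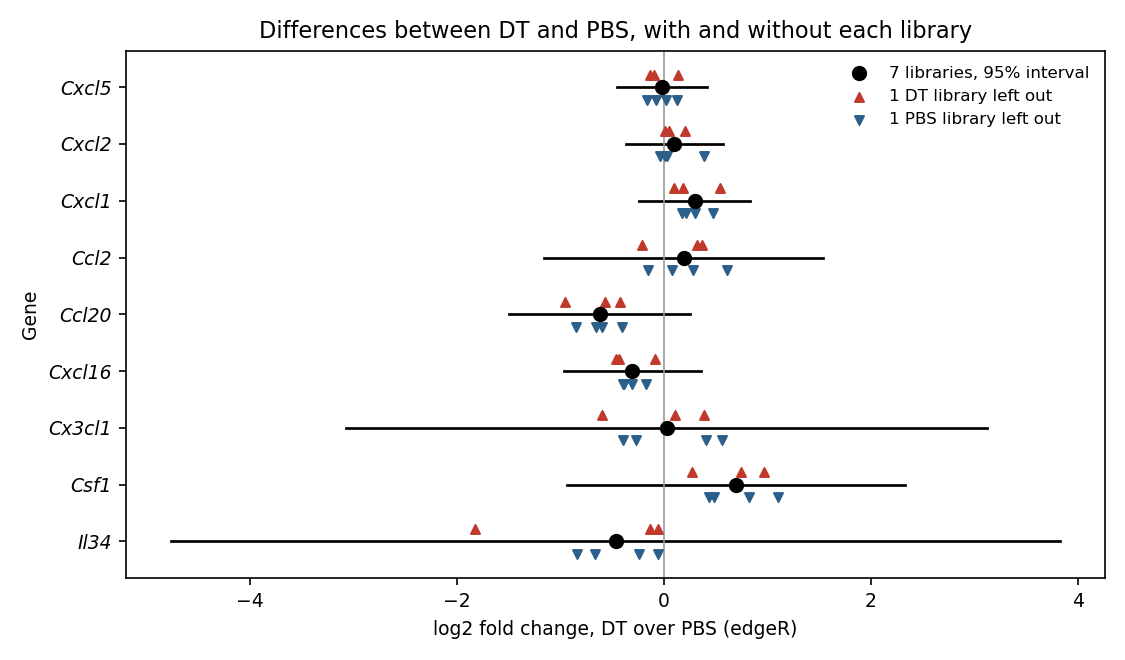
log2 fold change of DT over PBS for the 9 tested genes (black points, with lines for the 95% interval from edgeR), and the same value with 1 DT library (red triangles) or 1 PBS library (blue triangles) left out. All 9 intervals include 0. The narrowest is that of Cxcl5 and the widest that of Il34.

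In a 3′-end library each transcript is read near its end, so CPM was not divided by length when levels were ordered. The order of mean CPM was Cxcl5, Cxcl2, Cxcl1, Ccl2, Cxcl16, Ccl20, Csf1, Cx3cl1, Il34 and Cxcl12. Some neighbours in this order were apart in every library: Cxcl2 was above Cxcl1, Cxcl1 above Ccl2, Cxcl16 above Ccl20 and Ccl20 above Csf1 in 7 of 7. Others were not. Cxcl5 was above Cxcl2 in 5 of 7 libraries, Ccl2 above Cxcl16 in 6, Csf1 above Cx3cl1 in 4 and Cx3cl1 above Il34 in 4.

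Ccl2 varied more between libraries, in both groups, than most genes read at a similar level. The coefficient of variation of Ccl2 was 41.9% in DT and 63.7% in PBS, where the 200 tested genes nearest in mean CPM had medians of 22.1% and 27.3%. For Cxcl5 it was 19.3% in DT and 24.4% in PBS, against 20.2% and 23.9% for its neighbours in level. Cxcl1 was at 32.9% in DT and 25.4% in PBS, against medians of 21.1% and 24.2%. Cxcl2 was at 13.9% in DT and 37.2% in PBS, against medians of 20.7% and 23.9%. Few genes were read as highly as these, so their neighbours were not close in level. The neighbours ran from 649 to 11930 mean CPM for Cxcl5, 634 to 3428 for Cxcl1 and 645 to 7609 for Cxcl2. For Csf1 the values were 46.7% in DT and 63.0% in PBS, against medians of 58.6% and 56.2%.

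**Figure D5:**
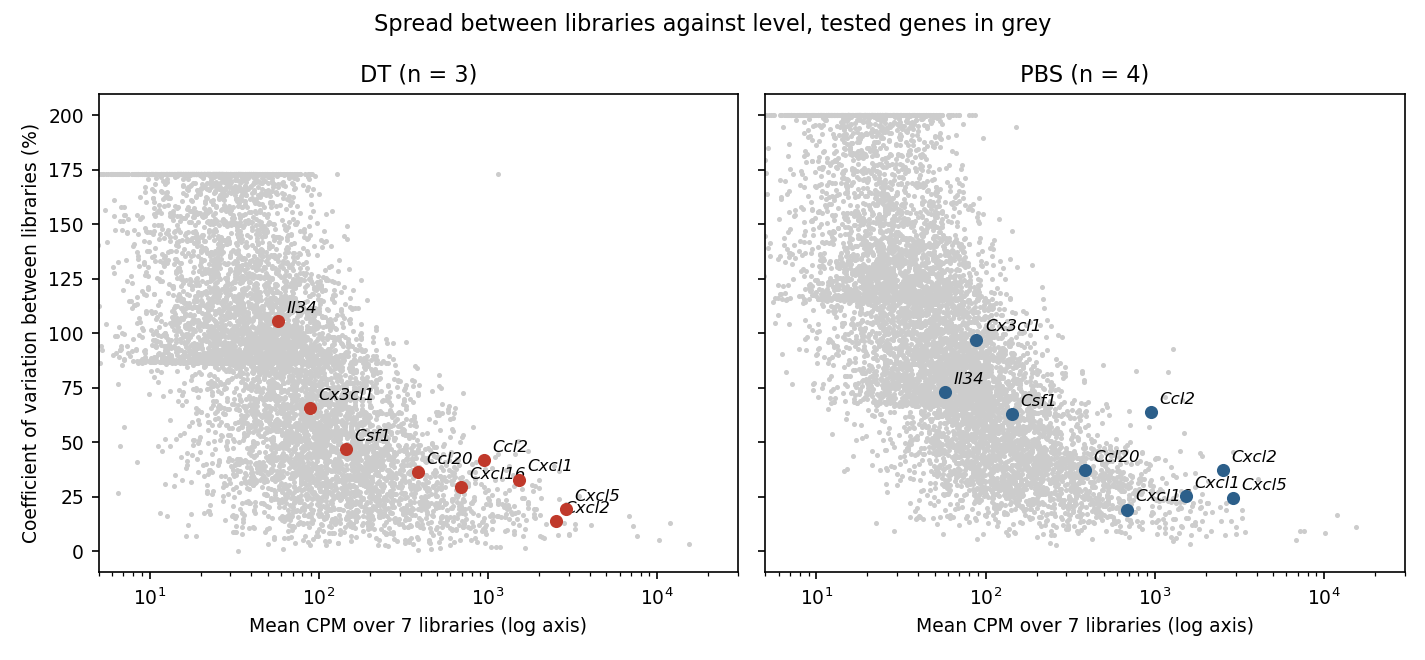
Coefficient of variation between libraries (vertical axis, percent) against mean CPM over 7 libraries (log axis), for DT at the left and PBS at the right, with all tested genes in grey and the 9 tested members in colour. Ccl2 lies above most genes of its level in both groups, at 41.9% in DT and 63.7% in PBS.

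Several members varied together across the 7 libraries, both within and across the receptor groups. The following correlations are of log2(CPM + 1), describe 7 points, and carry no test, since genes measured in 1 library share its depth and scaling. Cxcl1 and Cxcl5 had a Pearson r of 0.87 (Spearman 0.79), Cxcl1 and Cxcl2 had 0.75 (0.54), and Cxcl2 and Cxcl5 had 0.66 (0.54). Across receptor groups, Cxcl2 and Ccl2 had 0.78 (0.79), Cxcl5 and Ccl20 had 0.72 (0.64), and Cxcl5 and Cxcl16 had 0.70 (0.64). Cxcl16 and Ccl20 had 0.82 (0.89), and Csf1 and Il34 had 0.05 (0.11).

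For the 8 members with reads in every library, the most similar genes were sought over the same 7 libraries. The candidates were the other well-read genes (706, or 707 for Csf1 and Il34, which are below that level). The highest of so many correlations over 7 libraries is large in part by selection, and none was tested. Ccl20 was most like Nfkbia (Pearson r 0.91), which encodes the NF-kB inhibitor IkB-alpha, with r 0.96 over 5 libraries when the 2 farthest from the median of Ccl20 were left out. Luc7l3 (0.88) and Clcf1 (0.86), a cytokine gene of the IL-6 family, came next. Csf1 was most like Icam1 (0.88), which encodes an adhesion molecule for leukocytes, with r 0.63 over 5 libraries without PBS 2 and PBS 4. Cox6a1 (0.88) and Rps15a (0.87, but 0.21 without PBS 2 and PBS 4) followed. Ccl2 was most like Rgs5 (0.98), a regulator of G protein signalling, and over 5 libraries without PBS 1 and PBS 2 the r was 0.88. Ncl (0.95) and Serinc3 (0.94) followed. Cxcl1 was most like Zbtb7a (0.91), Cxcl5 (0.87) and Pttg1ip (0.86), and Cxcl2 was most like Noct (0.96), Pttg1ip (0.90) and Nars (0.90). Cxcl5 was most like G3bp1 (0.92), Thoc2 (0.90, but 0.39 without DT 2 and PBS 4) and Cxcl1. Cxcl16 was most like Rell1 (0.93), Med13 (0.93) and Skil (0.84, but 0.31 without DT 2 and PBS 2), and Il34 was most like Dsp (0.95), Smc1a (0.91) and Arf6 (0.88).

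Most receptors of these ligands had no reads in these cells. Of 14 listed receptors and scavenger receptors, 5 had any reads and 2 were tested, of which 0 were called. Cxcr1, Cxcr2, Ccr2, Ccr6 and Cxcr6 had 0 counts in all libraries. Csf1r, the receptor of Csf1 and Il34 and a macrophage gene, had 1, 866 and 922 counts in DT 1 to 3, against 319, 458, 274 and 915 in PBS 1 to 4. Cx3cr1 had reads in DT 3 alone (286 counts). The heparan sulfate proteoglycan gene Sdc1, whose product binds chemokines and Il34, was at 164 ± 171 CPM in DT (SD, n = 3) and 146 ± 115 CPM in PBS (SD, n = 4).

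Genes whose products release or trim chemokines, or assist such proteases (the inactive rhomboids Rhbdf1 and Rhbdf2), were listed as 15, of which 13 were tested, 2 with positive and 11 with negative log2 fold changes, and 0 were called. Their median log2 fold change was -0.49, within the quartiles over all tested genes (-0.78 and 0.75, median -0.02). Among those with negative values, Adam15, Adam17 and Mmp12 had 0 counts in libraries of both groups. Adam10, whose product sheds Cxcl16 and Cx3cl1 from the membrane, was at 145 ± 92.1 CPM in DT (SD, n = 3) and 203 ± 44.3 CPM in PBS (SD, n = 4). Mmp14, a membrane-bound matrix metalloproteinase gene, was at 152 ± 51.8 CPM in DT (SD, n = 3) and 346 ± 140 CPM in PBS (SD, n = 4), with a log2 fold change of -1.19 and an edgeR adjusted p of 1.00. The log2 fold changes of Ctsb and Mmp7, which encode cathepsin B and matrilysin, were -0.35 and -0.01.

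Of 30 other chemokine genes listed, 17 had reads and 6 were tested, 3 with positive and 3 with negative log2 fold changes, and 0 were called. Their summed level was 159 to 341 CPM in DT libraries and 174 to 429 CPM in PBS libraries, against 7149 to 11135 CPM in DT libraries and 7064 to 12859 CPM in PBS libraries for the 10 members. Most of the members' sum came from Cxcl1, Cxcl2 and Cxcl5, and single genes of the 2 sets overlapped in level. The interferon-induced Cxcl10, whose mean over 7 libraries (102 CPM) was above those of Cx3cl1, Il34 and Cxcl12, was at 79.0 ± 61.8 CPM in DT (SD, n = 3) and 119 ± 62.5 CPM in PBS (SD, n = 4). Pf4, Ccl6 and Ccl9, which platelets and myeloid cells are known to express, each had 0 counts in at least 1 library of each group except Ccl6, which had reads in all DT libraries.

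Proteins that act on the stability of chemokine mRNA were listed as 12 genes, of which 11 were tested, 5 with positive and 6 with negative log2 fold changes, and 0 were called. Zfp36l1 and Zfp36, which encode proteins that promote decay of AU-rich mRNAs, had log2 fold changes of -0.30 and -0.44, and Elavl1 and Rc3h1 had -0.34 and -1.26 (edgeR adjusted p = 1.00 for each). Of 19 listed NF-kB subunits, inhibitors and targets, 17 were tested, 10 with positive and 7 with negative log2 fold changes, and 0 were called. Nfkbia was at 2009 ± 486 CPM in DT (SD, n = 3) and 3108 ± 694 CPM in PBS (SD, n = 4), with a log2 fold change of -0.63 and an SE of 0.22. Vcam1, an adhesion molecule gene, was at 3206 ± 385 CPM in DT (SD, n = 3) and 4677 ± 1561 CPM in PBS (SD, n = 4), a log2 fold change of -0.55. Tnfaip2, a TNF-induced gene, was at 1897 ± 568 CPM in DT (SD, n = 3) and 1897 ± 827 CPM in PBS (SD, n = 4). Icam1 was at 826 ± 123 CPM in DT (SD, n = 3) and 685 ± 160 CPM in PBS (SD, n = 4), with a log2 fold change of 0.27.

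Of 23 other growth factors and cytokines that act on myeloid cells, 11 were tested, 5 with positive and 6 with negative log2 fold changes, and 0 were called. Spp1 (osteopontin) and Lcn2 (lipocalin 2) were the most abundant, at log2 fold changes of 0.31 and 0.98. Their adjusted p by edgeR was 1.00 and 0.419. Lif, a cytokine gene of the IL-6 family, had 1.02, and Kitl, which encodes stem cell factor, had -0.20.

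Markers of other cells that isolation by EpCAM could let through were summed in each library. Neutrophil markers, of which Cxcr2, Ly6g, Ngp, Elane, Mpo and Ltf had 0 counts throughout, summed to 35.8 to 186 CPM in DT libraries and 0 to 421 CPM in PBS libraries. The reads were mostly S100a8 and S100a9, with Retnlg in DT 3 and PBS 4. T and NK cell markers summed to 6.71 to 133 CPM in DT libraries and 0 to 37.5 CPM in PBS libraries, and came from Gzma, Gzmb and Il7r apart from single counts of Cd8a. Endothelial markers (Egfl7, Ptprb and Pecam1 the highest) summed to 1.47 to 166 CPM in DT libraries and 0 to 47.0 CPM in PBS libraries. The 7 listed B and plasma cell markers in the table had 0 counts.

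Stellate cell and fibroblast markers summed to 1103 to 2027 CPM in DT libraries and 658 to 2217 CPM in PBS libraries, most of it Rgs5 in each library, and Col1a2 and Col3a1 had at most 555 and 473 counts in any library. Mesothelial markers, all of them reads of Msln, summed to 0 to 32.2 CPM in DT libraries and 60.2 to 135 CPM in PBS libraries. Hepatocyte markers (Gc, Alb and Trf the highest) summed to 3613 to 5392 CPM in DT libraries and 2258 to 3769 CPM in PBS libraries. Of 9 tested hepatocyte markers 8 had positive log2 fold changes and 0 were called. Whether these cells contribute to the levels of the members was not tested.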

How the data were processed

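Total RNA was turned into libraries by the Lexogen QuantSeq FWD kit, per the labels' protocols; such reads start near transcript 3′ ends. The authors deposited raw counts per gene symbol, on build mm9 according to the submitters' processing notes. For the aligner, counter, annotation and molecular identifiers the entry is: not given in the sources used here. The table held 24552 symbols, 11487 of them with a count above 0. Titles gave the replicate numbers, and titles with the treatment label gave the groups.

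Counts were scaled by TMM, filtered by filterByExpr and fitted by the edgeR 4.0.16 quasi-likelihood test with robust dispersion (R 4.3.3), two-sided. SEs and 95% intervals were taken from the fold change, the F statistic and its degrees of freedom. The scripts were tested on simulated counts. The limit that a 0 allows covers counting error only, as PCR copies are not separate molecules. No 2 libraries of a group agreed within counting noise. Same-numbered libraries did not deviate together, with correlations of -0.06 to 0.01 over 707 genes, so the numbers were not used as pairs.

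The members and the 15 other gene lists (9 of them cell type markers) were chosen with earlier results of these data known. Named from each list were the called genes and the 4 (markers: 3) with the highest mean CPM. For members read in all libraries, the 3 genes with the highest Pearson correlation were also named. Listed genes named for having 0 counts, and all other genes outside this rule, were chosen after their values were seen. Alternatives were other scaling factors (RLE, upper quartile), no filter, a minimum average log2 CPM (3), the replicate block, DESeq2 1.42.0, limma-voom (limma 3.58.1) with sample weights, a covariate for Y-linked reads (present or not) and leaving out each library. Promoter sequences came from RefSeq, build GRCm38.p6, another build than that of the counts. Figures were drawn with matplotlib 3.10.9.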

Additional observations from a re-analysis of the deposited data

Results flagged for a closer look

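For 1 of the 10 members, Cxcl12, a PBS library stood apart from the other 3. For this gene the gap between PBS 4 (262 counts) and the nearest other PBS library (0 counts) was the whole range of the group, a share of 1. Any gene with reads in 1 library of 4 gives that share, and 50.1% of the values of genes near this level were 0, so the share adds nothing to the counts themselves. This check was run on the PBS group alone. For Cxcl2 the share was 0.799, with PBS 2 above the others, which was within the limit for 4 libraries.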

How the results depend on the processing

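No member was called under any of the 15 alternatives run, whose lowest adjusted p for a member was 0.0772, for Ccl2 with a Y-linked covariate (log2 fold change 2.23). PBS 1 is the 1 PBS library with Y-linked reads, and it had the lowest Ccl2, so that this fit sets the DT libraries against it alone. The signs of Cxcl1, Ccl20, Cxcl16 and Il34 held in all 15, but the log2 fold change of Il34 (-0.47) ran from -1.82 without DT 3 to -0.06 without DT 2. Ccl2 turned without PBS 1 (-0.15) and without DT 3 (-0.22), in a range up to 0.60 when 1 library was left out. Cxcl2 turned without PBS 1 (-0.0403, range to 0.39), Cxcl5 with the Y-linked covariate (0.13) and in a range of -0.16 to 0.13 with 1 library left out, and Csf1 with the Y-linked covariate (-0.12). Cx3cl1 turned with RLE factors (-0.0363), upper quartile factors (-0.0225), DESeq2 (-0.0363) and the replicate block (-0.27), and ran from -0.60 to 0.56 with 1 library left out. By limma-voom it was 3.21.

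Over all genes the reported test called 0 higher and 3 lower. No filter gave 1 and 7, the minimum of 3 in average log2 CPM gave 1 higher, the replicate block gave 6 and 6, DESeq2 gave 29 and 82 (65 of these 111 with a whole group at 0), limma-voom gave 15 and 6, and the Y-linked covariate gave 23 higher. With 1 library left out, 0 to 1 were higher and 1 to 4 lower. In a separate check of pairing, by correlation of deviations from the group means over 707 genes, 0 of 3 DT libraries correlated best with the PBS library of their own number. Where an alternative used neither fewer genes nor fewer libraries, the cause was not tested. Reads in 1 library limit what can be seen for Cxcl12, and wide intervals do so for Cx3cl1 and Il34.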

Other observations

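Among the listed regulators, NF-kB genes and myeloid factors, Khsrp, Relb, Il1b and Lcn2 had no overlap between the groups. They were 1 of 11 tested regulators, 1 of 17 NF-kB genes and 2 of 11 myeloid factors. Of all tested genes 6.31% had no overlap, and of well-read ones, such as Lcn2, 13.3%. The 4 genes were picked for this after their values were seen. Il1b, which encodes the cytokine interleukin-1 beta, had 507, 877 and 935 counts in DT 1 to 3, against 36, 16, 11 and 362 in PBS 1 to 4, with a log2 fold change of 2.72 and an SE of 1.90 (adjusted p = 1.00 by edgeR). Khsrp, whose product promotes the decay of AU-rich mRNAs, had 1426, 964 and 695 counts in DT 1 to 3, against 0, 279, 0 and 343 in PBS 1 to 4, with a log2 fold change of 2.55 and an SE of 1.63 (adjusted p = 1.00 by edgeR). Relb, an NF-kB subunit gene, was at 138, 169 and 263 CPM in DT 1 to 3, against 26.3, 129, 70.3 and 106 CPM in PBS 1 to 4. Lcn2 was at 2645, 2358 and 1606 CPM in DT 1 to 3, against 775, 1493, 1191 and 1013 CPM in PBS 1 to 4. Macrophages and neutrophils are known sources of Il1b. Lyz2, a gene of such cells, had 81, 69 and 330 counts in DT 1 to 3, against 6, 8, 0 and 1522 in PBS 1 to 4. PBS 1, PBS 2 and PBS 3 were the lowest libraries for both genes. PBS 4 had the most Lyz2 reads but fewer Il1b reads than each DT library. The part of these cells in the Il1b reads was not tested.

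Rgs5, known as a marker of pericytes and listed here with stellate cell and fibroblast markers, was at 1479 ± 441 CPM in DT (SD, n = 3) and 1369 ± 629 CPM in PBS (SD, n = 4), while the pericyte genes Pdgfrb and Des had 0 counts in all 7 libraries. It was also the gene most like Ccl2 among 706 candidates.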
